A study of Mus musculus with 4 samples.

Results

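REST, encoded by Rest, is a zinc finger repressor that binds the RE1 sequence, also called NRSE, and keeps neuronal genes silent outside neurons. It recruits a CoREST complex through its carboxyl terminus and a Sin3 complex through its amino terminus. Both complexes carry histone deacetylases, CoREST also carries the histone demethylase LSD1, and the histone methyltransferases G9a and GLP act with them. The genes described here are Rest and 9 genes for these corepressor subunits, 10 of the 26301 genes in a count table of mouse embryonic stem cells (ESCs). They comprise the CoREST scaffolds Rcor1, Rcor2 and Rcor3, the scaffold Sin3a, the deacetylases Hdac1 and Hdac2, the demethylase Kdm1a (LSD1), and the methyltransferases Ehmt1 (GLP) and Ehmt2 (G9a). They were chosen by name, and 9 were found by their symbol in the table, while Kdm1a, listed there as Aof2, was found by its gene identifier.

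RNA of 2 WT libraries from the ESC line N6 was compared with RNA of 2 libraries from the line N8, whose genotype is REST-/-. All cells grew with LIF and fetal bovine serum on irradiated mouse embryonic fibroblasts, and were passaged 3 times on gelatin before harvest. The labels do not describe the allele in N8. Each genotype was 1 line, so the genotype and the line cannot be told apart. The libraries held 22293966 to 30953863 counts on genes, of which the 10 genes took between 0.165% and 0.176%. In RNA from whole cultures, fewer cells that express a gene and less of its RNA per cell cannot be told apart.

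The ESC markers were present in every library, with 9 of 9 above 3 counts in all 4 libraries and summed levels of 4828 and 4688 CPM (counts divided by the library total after TMM scaling, as edgeR computes CPM) in WT and 4132 and 4249 CPM in REST-/- ESCs. None of the 9 passed the edgeR quasi-likelihood test described below. In it 3 had an unadjusted p under 0.05 (6.71% of all genes did), Zfp42, Nanog and Klf4, all lower in REST-/- ESCs. The log2 fold change was -0.46 for Nanog and -0.44 for Klf4, and of the 9 markers 5 were negative and 4 positive. Zfp42 passed in edgeR's exact tests and in DESeq2. The largest positive value was that of Utf1, at a log2 fold change of 0.19, and the largest negative that of Zfp42 (Rex1), at -1.36 (adjusted p = 0.179). The feeder fibroblast list summed to 44.8 and 49.7 CPM in WT and to 133.8 and 54.5 CPM in REST-/- replicates 1 and 2, so REST-/- replicate 1 stood apart. Of its 8 tested genes 7 had positive values, with a median log2 fold change of 1.60, between Thy1 (-0.18) and Postn (2.35). The collagen gene Col1a1 was at 11.8 and 6.42 CPM in WT and at 46.1 and 8.22 CPM in REST-/- ESCs, and Col1a2 at 6.27 and 4.26 against 28.5 and 3.84 CPM. The other 2 genes of the list, Lum and Dcn, were too low to be tested, at 0 to 0.187 CPM. The primitive endoderm list summed to 14.2 and 19.5 CPM in WT and to 38.0 and 29.1 CPM in REST-/- ESCs, between Foxa2 (log2 fold change 0.092) and Gata6 (2.26). The part of these cell types in the values below was not tested, and the values without each library are given where they matter. Scg3, a secretogranin gene repressed by REST in non-neuronal cells, was at 0.904 and 1.08 CPM in WT and at 88.3 and 88.7 CPM in REST-/- ESCs.

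Rest transcript was still abundant in REST-/- ESCs, at a lower level than in both WT libraries, and no gene of the corepressor set passed the threshold over all genes in the fit without a replicate block. Rest, at chr5:77694516-77715457 on the plus strand of NCBIM37 (mm9), was at 255 and 233 CPM in WT and at 164 and 176 CPM in REST-/- ESCs. The groups did not overlap, and the REST-/- mean was 69.6% of the WT mean, with a log2 fold change of -0.52 (95% interval -0.87 to -0.18). Its unadjusted p was 0.0121 and its adjusted p 0.526 (edgeR quasi-likelihood test, Benjamini-Hochberg over 15444 genes). Omitting any 1 library gave values from -0.59 to -0.46. In each genotype, the library with the higher fibroblast marker sum had the lower Rest level. This compares single libraries, and the part of feeder cells in the Rest values was not tested. The counts are sums over the gene and carry no position, so they do not tell a transcript that could encode REST from one that could not.

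In that test 0 of the 10 genes were called at an adjusted p under 0.05, against 9 of all 15444 genes tested, or 0.0583%. At an unadjusted p under 0.05 there was 1, Rest, where 6.71% of all genes reached that level. Also without a replicate block, other tools called 0 of the 10 genes. Of all genes, edgeR's exact test called 1.51% under tag-wise and 2.22% under common dispersion, and DESeq2 called 1.54%. The median log2 fold change of the 10 genes was -0.037, beside -0.0047 for all genes tested, and the median size of the change was 0.083, beside 0.18. All genes tested were not matched to the 10 in level, so the smaller size is not shown to be particular to these genes. All 10 genes passed the filter on low counts. With a replicate block the calls of Rest, Hdac1 and Ehmt2 changed, as given in the closing section.

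**Figure D1:**
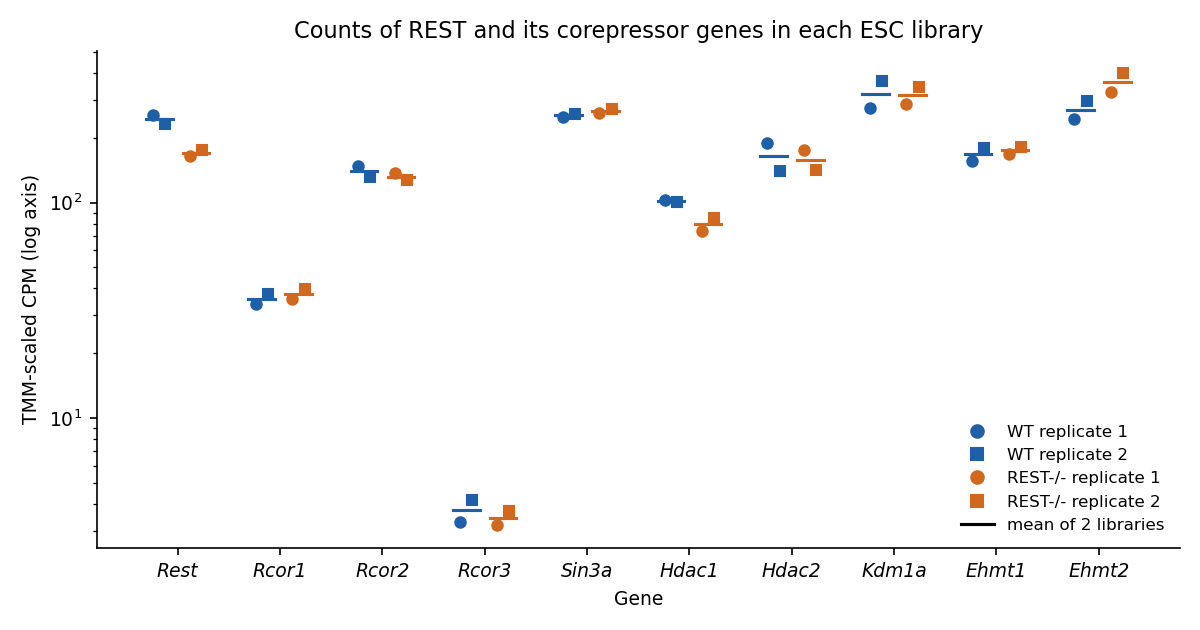
TMM-scaled CPM on a log axis for each gene in the 4 ESC libraries, with circles for replicate 1, squares for replicate 2 and lines for the mean of 2 libraries. The REST-/- libraries lie below both WT libraries for Rest and Hdac1 and above both for Sin3a and Ehmt2, and Rcor3 is the lowest gene at 3.17 to 4.14 CPM.

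For the 3 CoREST scaffolds, the WT and REST-/- libraries overlapped. Rcor1, which encodes CoREST1, the subunit that holds LSD1 and the deacetylases together, was at 33.7 and 37.7 CPM in WT and at 35.8 and 39.5 CPM in REST-/- ESCs. Rcor2 was at 149 and 132 CPM in WT and at 137 and 127 CPM in REST-/- ESCs. Rcor3 was at 3.29 and 4.14 CPM in WT and at 3.17 and 3.70 CPM in REST-/- ESCs. It rested on 82 to 111 counts per library, whereas every other gene of the set had at least 876. The log2 fold changes of these 3 genes were 0.076 for Rcor1, -0.090 for Rcor2 and -0.11 for Rcor3, each with an adjusted p of 0.999989 (edgeR quasi-likelihood test). With each single library omitted, they ranged from -0.0075 to 0.16 for Rcor1, from -0.17 to -0.0087 for Rcor2 and from -0.28 to 0.062 for Rcor3, and WT replicates 1 and 2 set the ends of each range.

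The 95% interval of the REST-/- to WT ratio ran from 0.779 to 1.43 for Rcor1 and from 0.728 to 1.21 for Rcor2. For Rcor3 it ran from 0.524 to 1.63, the widest of the set.

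Sin3a, the scaffold of the Sin3 complex, at chr9:56919847-56976173 on the plus strand, had the smallest standard error of the 10 genes (0.12 on the log2 scale). It was at 251 and 259 CPM in WT and at 262 and 274 CPM in REST-/- ESCs, with both REST-/- libraries above both WT libraries. The log2 fold change was 0.071 (95% interval of the ratio 0.846 to 1.31, adjusted p = 0.999989 in edgeR's quasi-likelihood test), and 0.033 to 0.11 with single libraries omitted. Replicates differed 1.03-fold in WT and 1.05-fold in REST-/- ESCs.

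Of the deacetylases, Hdac1 was lower in both REST-/- libraries, without passing the threshold in the fit without a replicate block, and Hdac2 overlapped. Hdac1, at chr4:129193348-129219957 on the minus strand, was at 103 and 101 CPM in WT and at 74.0 and 84.5 CPM in REST-/- ESCs, a mean of 77.7% of WT. The log2 fold change was -0.36 (95% interval -0.74 to 0.013, unadjusted p = 0.0556, adjusted p = 0.769 in edgeR's quasi-likelihood test) and lay between -0.47 and -0.27 when each library was left out. Hdac2 was at 189 and 140.0 CPM in WT and at 175 and 142 CPM in REST-/- ESCs, with a log2 fold change of -0.051 (95% interval of the ratio 0.656 to 1.42), which ranged from -0.25 to 0.17 over the omissions.

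Hdac1 counts carry a further uncertainty. The mouse genome (NCBIM37, mm9) holds 3 near-identical copies of the Hdac1 coding sequence, with 94.6% to 99.4% identity over 100% of its length, and the closest, at chr17:78890922-78892370, is annotated as the protein-coding gene Gm10093. How reads that match Hdac1 and a copy equally well were counted is not given in the sources used here, and the count table had no line for Gm10093 by name or identifier. No copy of this likeness was found for the other 9 genes.

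Among the histone methylation enzymes, Ehmt2 was higher in both REST-/- libraries, whereas Kdm1a and Ehmt1 overlapped. Ehmt2 did not pass the threshold in the fit without a replicate block. Kdm1a, which removes methyl groups from histone H3, at chr4:136106455-136158638 on the minus strand, was at 275 and 366 CPM in WT and at 287 and 343 CPM in REST-/- ESCs, with a log2 fold change of -0.023 (95% interval of the ratio 0.684 to 1.42). Ehmt1 was at 156 and 179 CPM in WT and at 168 and 182 CPM in REST-/- ESCs, with a log2 fold change of 0.062 (95% interval of the ratio 0.804 to 1.36). For both, replicate 2 was higher than replicate 1 in each genotype, and the span between replicates exceeded the difference between genotypes. Omitting single libraries gave -0.22 to 0.20 for Kdm1a and -0.041 to 0.17 for Ehmt1.

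Ehmt2, whose product works as a heterodimer with that of Ehmt1, lies at chr17:35035414-35050997 on the plus strand. It was at 245 and 295 CPM in WT and at 325 and 399 CPM in REST-/- ESCs. The groups did not overlap and the REST-/- mean was 134% of the WT mean. The log2 fold change was 0.42 (95% interval -0.043 to 0.89, unadjusted p = 0.0661, adjusted p = 0.808 in edgeR's quasi-likelihood test). Leaving out each library in turn gave values between 0.26 and 0.57.

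**Figure D2:**
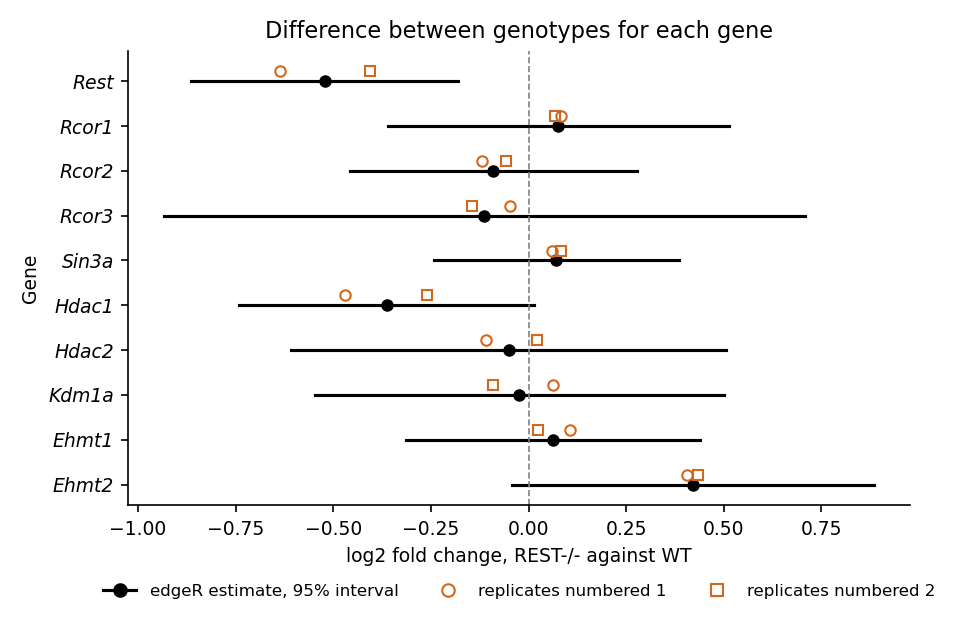
The log2 fold change of REST-/- against WT for each gene, with black points for the edgeR estimate, black lines for its 95% interval, and open symbols for the difference between libraries of the same replicate number. The interval lies below 0 for Rest (-0.87 to -0.18) and includes 0 for the other 9 genes.

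Both REST-/- libraries lay above both WT libraries for 2 of the 10 genes, Sin3a and Ehmt2, where 16.5% of all genes tested did. Both lay below for 2, Rest and Hdac1, where 15.4% of all genes did. These shares were near those of all genes.

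For Rest, Hdac1, Ehmt2 and Sin3a the log2 fold change was larger than the difference between replicates in either genotype, whereas for the other 6 genes it was smaller. The median ratio of the higher to the lower replicate was 1.14 in WT and 1.12 in REST-/- ESCs for the 10 genes, and 1.25 and 1.21 for all genes tested. Hdac2 was 1.35-fold higher in replicate 1 than in replicate 2 of WT and 1.23-fold higher in replicate 1 of REST-/- ESCs. Kdm1a went the other way, with replicate 2 higher 1.33-fold in WT and 1.20-fold in REST-/- ESCs. For 8 of the 10 genes the higher replicate had the same number in both genotypes, as for 82.5% of all genes tested, and the exceptions were Rest and Hdac1. The counting error of these log2 ratios was 0.021 to 0.068 for each gene except Rcor3, where it was 0.20 in WT and 0.23 in REST-/- ESCs.

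Levels were compared between genes per kilobase of annotated exon (RPKM, from the GENCODE M1 exons on NCBIM37). In WT ESCs Kdm1a was highest at 61.9 ± 12.5 RPKM (SD, n = 2), followed by Ehmt2 at 49.2, Sin3a at 47.2 and Rcor2 at 44.8 RPKM. Among these 4 genes, the libraries of each overlapped those of the next in order. Below them, with Rcor2 and Hdac2 separate, came Hdac2 at 36.7, Rest at 33.6, Hdac1 at 29.6 and Ehmt1 at 23.5 RPKM, with Hdac2 and Rest overlapping and the others separate. This order depends on the length used: with the longest transcript, Hdac1 was at 50.01 RPKM, above Rest (34.8) and Sin3a (48.9), Hdac2 at 50.5 RPKM was above Rcor2 (50.2), and Kdm1a, at 105.8 RPKM, was again highest. Rcor1 at 6.28 RPKM and Rcor3 at 1.04 RPKM were separate from the rest and from each other.

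Seen against the other genes, most of the set was expressed well above the median. Among 13000 tested genes with an annotated length, whose median WT level was 6.51 RPKM, 8 of the 10 lay between the 78.2nd percentile (Ehmt1) and the 92.0th (Kdm1a). Rcor1 was at percentile 49.3 and Rcor3 at 21.2.

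In REST-/- ESCs the means fell into another order at the top and in the middle. Ehmt2 was highest at 66.0 ± 9.52 RPKM (SD, n = 2), ahead of Kdm1a at 60.9 RPKM, and these 2 overlapped. Rest, at 23.4 ± 1.11 RPKM (SD, n = 2), came after Ehmt1 at 24.6 RPKM and ahead of Hdac1 at 23.0 RPKM, and both neighbours overlapped it. With the longest transcript, Rest at 24.3 RPKM lay below both Hdac1 (38.9) and Ehmt1 (34.2). In terms of percentile, Rest moved from 84.2 in WT to 78.0 in REST-/- ESCs.

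**Figure D3:**
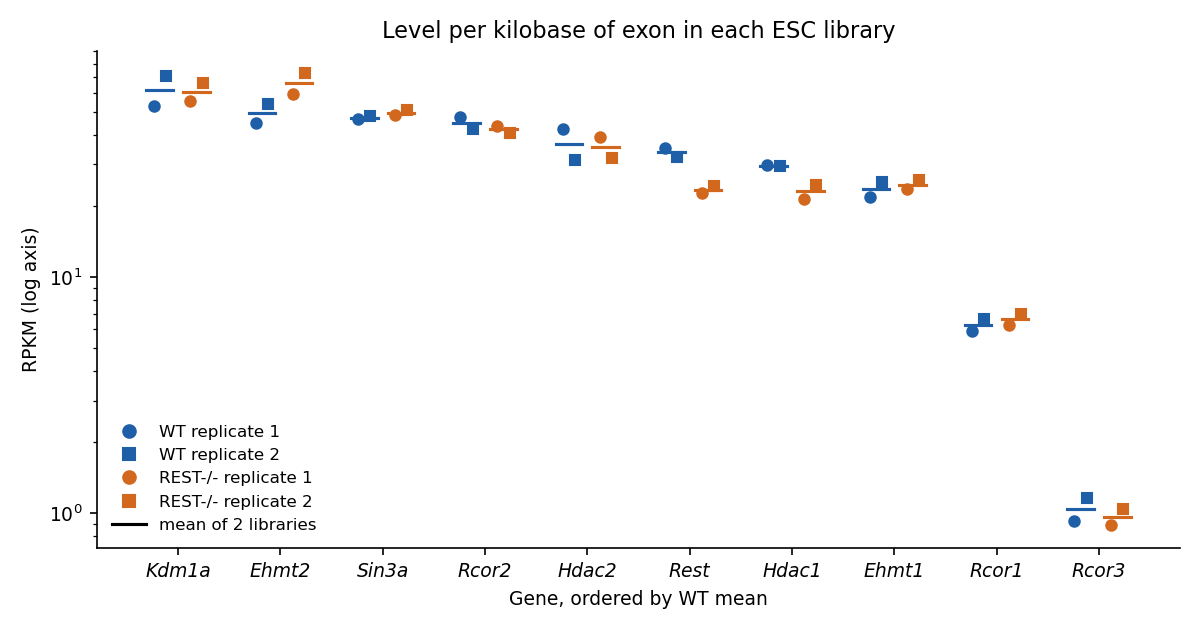
RPKM on a log axis for each gene in the 4 ESC libraries, ordered by the WT mean, with circles for replicate 1, squares for replicate 2 and lines for means. Of the 10 genes, 8 lie between 21.5 and 72.7 RPKM, and Rcor1 (5.93 to 6.96) and Rcor3 (0.890 to 1.16) lie apart below them.

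Within each family, shares of the summed RPKM do not depend on the scaling between libraries. Of the CoREST scaffolds, Rcor2 made up 87.4% and 84.4% in WT and 85.9% and 83.5% in REST-/- ESCs. Rcor1 made up 10.9% to 14.3% over the 4 libraries and Rcor3 1.70% to 2.33%. Rcor2 was thus the leading CoREST transcript in every library, in overlapping shares.

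For the deacetylases, Hdac1 made up 41.4% and 48.5% of the pair in WT and 35.5% and 43.6% in REST-/- ESCs, and the groups overlapped. For the methyltransferases, Ehmt2 made up 67.1% and 68.1% of the pair in WT and 71.6% and 73.9% in REST-/- ESCs. The groups did not overlap, and the means were 67.6% ± 0.691 and 72.8% ± 1.69 (SD, n = 2 each). An exact permutation test of 2 against 2 libraries cannot reach the threshold, so none was run on these shares.

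**Figure D4:**
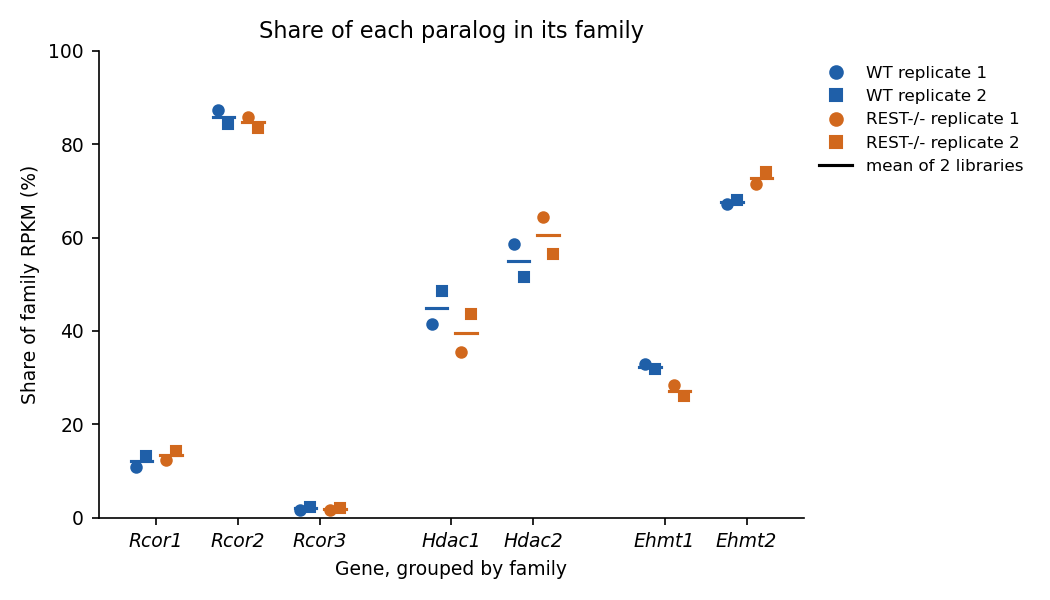
Share of each paralog in the summed RPKM of its family, in percent on a linear axis, for the 4 ESC libraries, with circles for replicate 1, squares for replicate 2 and lines for means. Rcor2 lies between 83.5% and 87.4%, and for Ehmt2 the REST-/- libraries lie above both WT libraries.

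Whether the genes that encode the complex hold REST's own recognition sequence was examined in the genome. The motif was read from RE1 sites in 750 of the study's REST regions, as the bases shared by at least 60% of sites. A 20-base motif with 16 defined positions (TCAGNACCNNGGACAGCNCC, N for any base) was built from the 284 sites with at most 1 mismatch to it, and searched on both strands within 20 kb of each annotated start site. At 14 or more of the 16 positions, 0 of the 10 genes had a match, where 8.42% of 22380 protein-coding genes did. At 13 or more, 5 of the 10 genes had a match, where 45.5% of protein-coding genes did, a share near the same. Scg3 had none at 13 or more, so a gene without a match in this search is not shown to lack a REST site.

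The 5 matches are shown because they are the closest sequences to RE1 near these genes, each in the direction of the motif, with capitals for bases that match it and lower case for the rest.
Rest, chr5:77695079-77695098, minus strand: TCAGgACCgcGGtCAcCagC
Rcor1, chr12:112289764-112289783, minus strand: TCAGagCCaaGcACAGCaaC
Rcor2, chr19:7348857-7348876, plus strand: TCAGtACCccGatCAGtaCC
Sin3a, chr9:56950788-56950807, plus strand: TgAGcACCactGACcGCtCC
Ehmt1, chr2:24703497-24703516, minus strand: TCAGcACCctGGcCAaCaaC
Coordinates are those of NCBIM37 (mm9). None of these matches lies in the 750 REST regions from which the motif was read, which are not all of the study's REST regions. The match in Rest lies in an intron 132 bases before the nearest of its 3 annotated start sites, and 7.13% of protein-coding genes had a match of this closeness within 1 kb of a start. Those in Rcor1 and Sin3a lie in introns 11.9 and 7.7 kb from the nearest start, and those in Rcor2 and Ehmt1 in coding exons 3.4 and 4.7 kb from it. With a shorter version of the motif, GGACAGCNNC with 8 defined positions that all lie within the longer motif, 9 of the 10 genes had a match within 20 kb, where 80.6% of protein-coding genes did.

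Without a replicate block, no gene of the wider complex passed the test either. In 6 lists of partner, related and regulator genes, 45 genes were tested and 0 were called (edgeR quasi-likelihood test), with 4 at an unadjusted p under 0.05, where 6.71% of all genes reached that level. Also without a block, the exact tests and DESeq2 called 0 of the 45. With a block 8 of the 45 were called, beside 8.47% of all genes higher and 8.50% lower, as given in the closing section. Both REST-/- libraries were above both WT libraries for 6 of the 45, or 13.3% beside 16.5% of all genes, and below for 14, or 31.1% beside 15.4%.

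Among 6 CoREST partners the median log2 fold change was -0.11, from -0.40 for the zinc finger gene Zmym3 to 0.15 for its relative Zmym2. Among 14 Sin3 complex partners it was -0.081, from -0.36 for Sin3b, the paralog of Sin3a, to 0.11 for the histone-binding protein gene Rbbp4. Sin3b was at 250.1 and 241 CPM in WT and at 178 and 204 CPM in REST-/- ESCs (unadjusted p = 0.0463, adjusted p = 0.737 in edgeR's test). Sin3a and Sin3b thus lay on opposite sides of 0, and this difference was not tested.

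All 4 partners of G9a and GLP had negative values, where 7853 of all 15444 genes tested did. Their median was -0.11, between -0.23 for Cdyl and -0.026 for Zfp644, and only for Cdyl did the groups not overlap. Among 9 genes for other proteins found with REST, in ESCs or in other cells, the median was 0.048. Values ran from -0.35 for the histone demethylase gene Kdm5c to 0.29 for the corepressor gene Ctbp1. The study's purifications of REST from ESCs did not list Ctbp1, and its mass spectrometry gave no evidence for Kdm5c (SMCX). The 13 genes in these lists included no call without a replicate block.

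Of 3 relatives of the enzymes, Hdac3, the deacetylase of the NCoR and SMRT corepressors, had the largest positive value. It was at 103 and 105 CPM in WT and at 149 and 159 CPM in REST-/- ESCs, without overlap, a log2 fold change of 0.57 (standard error 0.13, unadjusted p = 0.00816, adjusted p = 0.450 in edgeR's quasi-likelihood test). Hdac8 had the largest negative value, -0.33.

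Of 9 regulators of REST, Srrm4, a neuronal splicing factor that acts on Rest transcripts, had the largest positive value, at 2.13 and 2.61 CPM in WT and 3.75 and 6.05 CPM in REST-/- ESCs. The change was 1.04 on the log2 scale (standard error 0.38, unadjusted p = 0.044, adjusted p = 0.733 in edgeR's quasi-likelihood test). Btrc, which encodes the ubiquitin ligase subunit that marks REST for degradation, had the largest negative value, -0.24. The median of the 9 was 0.049.

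The 501 tested genes on the X chromosome had a median of -0.40 on the log2 fold change scale, beside 0.0066 over the 12499 tested genes on other chromosomes. The 4 X-linked genes of the 6 lists, Zmym3, Rbbp7, Kdm5c and Hdac8, had values from -0.40 to -0.097, all negative, and are all among the 14 genes below both WT libraries. Of the other 41 list genes, 23 were negative and the median was -0.026. None of Rest and its corepressor genes is on the X chromosome.

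**Figure D5:**
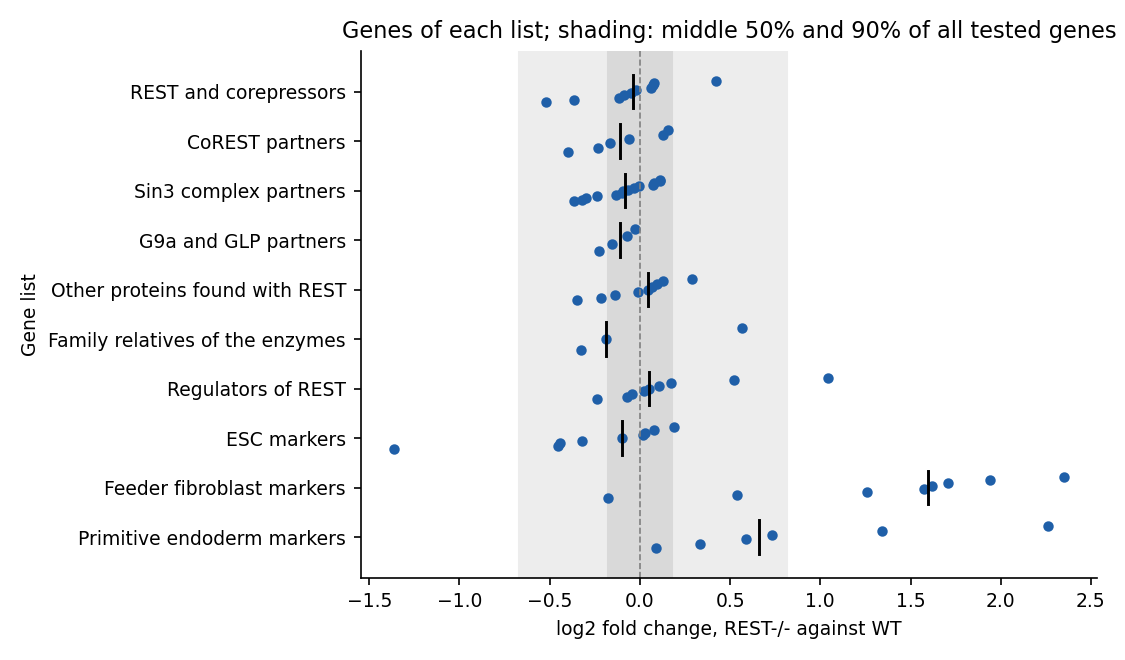
The log2 fold change of REST-/- against WT for each tested gene of each list (blue points) with the list's median (black line), over the middle 50% (dark) and 90% (light) of all genes tested. Of Rest and the corepressor genes, 7 lie in the dark band, from -0.18 to 0.18, and the others, Rest, Hdac1 and Ehmt2, lie in the light band, from -0.67 to 0.82.

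The tested genes whose levels over the 4 libraries were most like those of Rest were Gjb5, a gap junction gene, Ubl4a and Erv3. Their centred log2(CPM + 0.5) values differed from those of Rest by a root mean square of 0.0156, 0.0171 and 0.0181, and 26 of 15443 genes were within 0.05. Gjb5 was at 45.1 and 42.1 CPM in WT and at 28.8 and 30.9 CPM in REST-/- ESCs. Erv3 had only 4 to 15 counts per library, and its fitted log2 fold change was -1.40, beside -0.52 for Rest, so its likeness holds only on the scale with 0.5 added. None of the 9 corepressor genes was among these 3.

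Exons of 2 of the genes overlap genes on the opposite strand in the annotation, and whether the counting used strand is not given in the sources used here. In Rcor3, 674 exonic bases, or 18.9% of its exon length, are shared with the noncoding gene Gm16621. In Sin3a, 205 bases (3.80%) are shared with 2410133F24Rik and 8 bases with 2700012I20Rik, which had 1 to 3 counts per library. If the counting did not use strand, reads from those stretches cannot be told apart between the genes.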

How the data were processed

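RNA of 2 WT and 2 REST-/- ESC libraries was sequenced by the study's authors (TruSeq, HiSeq). They deposited raw whole-number counts per Entrez gene, without normalization. The submitters' processing notes name Subread, featureCounts and mm9. The annotation and strand setting are not given in the sources used here. Lines without an identifier or value (368) were left out. For names alone, 24191 identifiers matched RefSeq's GRCm38.p6 table.

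Counts were compared with edgeR 4.0.16 in R 4.3.3 (TMM scaling, filterByExpr, quasi-likelihood test without a block, Benjamini-Hochberg over all genes tested, threshold 0.05). Values per library are TMM-scaled CPM, and patterns used log2(CPM + 0.5). RPKM used the union of exons on NCBIM37 (mm9), searched for RE1 with pysam 0.24.0. Copies, at 90% identity or more over 80% of the coding sequence, were found with BLAST+ 2.17.0.

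Alternatives were scaling by RLE, by the upper quartile or by library size alone, 2 other filters, edgeR's exact tests, DESeq2 1.42.0, a replicate block, each library left out, the longest transcript as length, and other RE1 definitions. The members and lists were chosen with earlier results of these data known. Named genes are the members, each list's called genes and extremes, the 3 genes most like Rest, copies, overlapping genes and Scg3. Sin3b is the lowest of its list, and Rbbp7 and the markers Col1a1, Col1a2, Lum, Dcn, Nanog, Klf4 and Esrrb were named after their values were seen. Of the gene lists, 1 gene is not reported here. P-values measure the spread between libraries of 1 line per genotype. Library totals were 22293966 to 30953863 counts. For each member, the counting error of the log2 ratio between replicates was below the fitted standard error of the log2 fold change. These are errors of different quantities. Other assays and protein sequences were not analysed here.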

Additional observations from a re-analysis of the deposited data

How the results depend on the processing

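No member was called under 3 other scalings, 2 other filters, edgeR's exact tests, DESeq2 or with any library left out, and of 130 member values under alternatives 118 kept their direction and their side of the threshold. With a replicate block, Rest (-0.52, adjusted p = 0.00166), Hdac1 (-0.37, adjusted p = 0.0107) and Ehmt2 (0.42, adjusted p = 0.00125) passed edgeR's quasi-likelihood test, so 1 member was higher and 2 were lower, beside 1308 (8.47%) of all genes higher and 1313 (8.50%) lower. The block also called 8 of the 45 partner, related and regulator genes, Hdac3, Srrm4 and Sin3b among them, and 12 marker genes, including Zfp42, Nanog, Klf4, Esrrb and Utf1. Of the markers, the exact test called 2 (Zfp42 and Gata6) with tag-wise and 7 with common dispersion, and DESeq2 1. The libraries share only a number, with no stated link, although the deviations of those numbered alike correlated over 15444 genes (r = 0.807). Against 8 genes higher and 1 lower in the test without it, 49 were higher and 4 lower with no filter on low counts, and 3 and 0 with at least 10 counts in every library. The exact test gave 179 and 54 with tag-wise and 246 and 97 with common dispersion, and DESeq2 180 and 58. Leaving out each library gave 54 to 88 higher and 6 to 25 lower, where the lone library was assumed to vary like the other genotype. These omissions turned 5 members, which ranged from -0.0075 to 0.16 (Rcor1), -0.28 to 0.062 (Rcor3), -0.25 to 0.17 (Hdac2), -0.22 to 0.20 (Kdm1a) and -0.041 to 0.17 (Ehmt1). Rcor1, Hdac2 and Ehmt1 turned without WT replicate 1 or REST-/- replicate 2, Rcor3 and Kdm1a without WT replicate 2, and Kdm1a also without REST-/- replicate 1. With the longest transcript as the length, WT and REST-/- RPKM were 50.2 and 47.1 for Rcor2, 48.9 and 51.4 for Sin3a, 50.01 and 38.9 for Hdac1, 50.5 and 48.8 for Hdac2, 105.8 and 104.1 for Kdm1a, 32.8 and 34.2 for Ehmt1, and 67.1 and 89.9 for Ehmt2. The WT shares of Hdac1 and Hdac2 were then 50.01% and 49.99%. The RE1 motif with 16 defined positions was chosen after seeing the data. It matched near 0 members at 16 or at 14 or more positions and near 5 at 13 or more, against 9 with the shorter motif. The counting error of the ratio between replicates came nearest to the fitted standard error of the log2 fold change for Rcor3.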
